A study of Mus musculus with 9 samples.

Results

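The 9 genes Slc17a7, Tbr1, Fezf2, Cux2, Rorb, Neurod6, Neurod2, Nxph3 and Vxn are used as markers of the excitatory neurons of the cerebral cortex and of the layers in which these neurons lie. They were found by symbol among the 20731 genes counted in 9 brain libraries, and each symbol had 1 row. All 9 passed the filter on low counts, as did 14746 genes in all. The 9 genes were chosen with earlier results of these libraries known, so they were in effect chosen by the same counts and comparisons that are described here. Their levels and fold changes are therefore given as a description, and no test of them is reported.

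The libraries came from male C57BL/6J mice, young adults, 3 in each of 3 groups, all with thrombosis of the superior sagittal sinus induced by ferric chloride and all sampled on day 2. The CVST group had cerebral venous sinus thrombosis alone. The CVST+Ligation group had thrombosis plus ligation of the deep cervical lymph nodes, which was meant to impair drainage through the meningeal lymphatic vessels. The 4-PBA group had thrombosis and ligation and received 4-phenylbutyric acid, an inhibitor of endoplasmic reticulum stress, by intraperitoneal injection. The methods place that injection before modelling, whereas the series description places it after ligation. The methods also give solvent to control mice, without saying whether the CVST+Ligation mice received it. No sham-operated library was analysed here, so every comparison is between mice with thrombosis. The sample labels give the tissue as brain and the series description as cortex.

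Excitatory neurons of the cortex release glutamate, and their types are stacked in layers with different targets. Neurons of the upper layers project mostly to other parts of the cortex, those of layer 5 to the brainstem, spinal cord and striatum, and those of layer 6 to the thalamus. Transcription factors that are set during development, among them Cux2, Rorb, Fezf2 and Tbr1, stay on in adult neurons and are used to tell the layers apart.

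The start sites of the genes are shown first, and no link between these sequences and the levels was tested. The RefSeq promoter table (GRCm38.p6) held 7 of the 9 members, and Vxn and Nxph3 had no entry. The 250 bases before the start are printed for the pair of related factors Neurod2 and Neurod6 and for the transporter gene Slc17a7, with every E-box in capitals. An E-box is the run CANNTG, read the same on both strands, to which basic helix-loop-helix factors such as the Neurod proteins bind. These windows lie on the minus strand at chr11:98329646-98329895 for Neurod2, on the minus strand at chr6:55681264-55681513 for Neurod6 and on the plus strand at chr7:45163671-45163920 for Slc17a7.
Neurod2: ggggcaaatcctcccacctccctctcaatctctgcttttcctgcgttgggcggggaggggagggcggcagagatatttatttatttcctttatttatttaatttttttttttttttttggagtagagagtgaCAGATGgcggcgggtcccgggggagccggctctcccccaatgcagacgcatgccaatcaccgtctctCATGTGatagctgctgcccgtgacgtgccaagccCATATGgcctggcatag
Neurod6: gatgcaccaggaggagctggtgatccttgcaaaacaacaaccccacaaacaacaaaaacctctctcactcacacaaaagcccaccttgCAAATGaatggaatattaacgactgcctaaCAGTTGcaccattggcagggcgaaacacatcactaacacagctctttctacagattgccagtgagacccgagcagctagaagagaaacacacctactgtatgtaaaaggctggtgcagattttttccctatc
Slc17a7: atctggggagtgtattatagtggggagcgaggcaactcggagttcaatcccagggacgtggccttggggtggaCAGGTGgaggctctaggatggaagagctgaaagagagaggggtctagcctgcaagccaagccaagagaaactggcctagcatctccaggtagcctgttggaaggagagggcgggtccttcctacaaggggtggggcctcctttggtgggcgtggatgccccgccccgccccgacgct
The Neurod2 window held 3 E-boxes that begin 118, 51 and 17 bases before the start site. The Neurod6 window held 2, at 162 and 132 bases before the start. The Slc17a7 window held 1, at 177 bases before the start. An E-box of any kind was in a window of 6 of the 7 members and of 69.3% of 27018 genes, so its presence does not set the members apart. Fezf2 was the member without one. Cux2 and Rorb had 2 windows each, and the E-boxes of Rorb lay in only 1 of them, at chr19:19001118-19001367. All 250 bases of the Tbr1 window lie in annotated exons. The run CAGATG or its reverse complement, 1 form of the E-box, was in 2 of the 7 members, Cux2 and Neurod2, against 16.3% of genes. CAGCTG, another form of the E-box, was in none of the 7 and in 14.7% of genes. GGTGTGA, the core of the T-box site, was in none and in 3.85%. AGGTCA, the core of the site of ROR receptors, was in none and in 15.8%. TATAAA was in Cux2 alone and in 14.3% of genes. All runs were searched on both strands, and a match of letters is not a measured binding site.

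Each library held 18100739 to 25091498 counted reads, and 3 counts, taken as the floor, amounted to 0.114 to 0.163 CPM, the counts scaled to a common depth per library. Levels below are CPM scaled by the TMM method. The libraries did not have the same make-up of brain regions. The summed level of 10 cerebellar markers was 1570 CPM in CVST+Ligation replicate 2 and 38.1 to 99.1 CPM in the other libraries. The summed level of 21 midbrain and hindbrain markers was 13.6 to 16.6 CPM in CVST, 121 to 417 CPM in CVST+Ligation and 142 to 156 CPM in 4-PBA. For 11 hypothalamic markers it was 7.45 to 58.1 CPM in the first 2 groups and 304 to 597 CPM in 4-PBA. CVST+Ligation replicate 2 thus stands apart, and log2 fold changes without it are given beside those that include it in both comparisons that use the CVST+Ligation mean. For 4-PBA against CVST, where it is in neither mean, no member moved by more than 0.02 without it.

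Per length of transcript, the members spanned a wide range of levels. In CVST the mean FPKM (fragments per kilobase of transcript, scaled to the depth of the library) was highest for Slc17a7 at 951 ± 132 (SD, n = 3), followed by Vxn at 278 ± 77.7 and Neurod6 at 164 ± 31.3. Tbr1 had 54.7 ± 18.9 FPKM, Nxph3 39.8 ± 6.26, Fezf2 34.8 ± 13.3, Neurod2 33.8 ± 0.127 and Cux2 19.2 ± 5.93. Rorb came last at 2.67 ± 1.10 FPKM. From Tbr1 through Nxph3 and Fezf2 to Neurod2, each mean lay within the larger SD of itself and its neighbour, so the order of these neighbours is not resolved.

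Slc17a7 encodes VGLUT1, the transporter that loads glutamate into synaptic vesicles in most cortical excitatory neurons and also in granule cells of the cerebellum. The gene lies at chr7:45163949-45176142 (GRCm38), on the plus strand. Its level was 1761, 1420 and 1974 CPM in CVST replicates 1, 2 and 3. It was 1433, 419 and 1406 CPM in CVST+Ligation and 520, 567 and 732 CPM in 4-PBA. CVST+Ligation replicate 1 was within the range of CVST, replicate 3 was just below it and replicate 2 was below every other library, whereas all 3 libraries of 4-PBA were below all of CVST. The log2 fold change was -0.66 ± 0.39 (model SE) for CVST+Ligation against CVST, -0.84 ± 0.39 for 4-PBA against CVST+Ligation and -1.50 ± 0.39 for 4-PBA against CVST, where the mean was 2.83-fold lower. Without CVST+Ligation replicate 2 the first moved to -0.28 and the second to -1.21. These 3 comparisons share libraries with one another and are not independent. In bulk tissue, fewer cells of a type and less RNA per cell cannot be told apart.

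Vxn encodes vexin, a protein that promotes the differentiation of neurons. It lies at chr1:9601199-9627143, on the plus strand, and 2610203C22Rik is annotated on the other strand. Its level was 226, 175 and 130 CPM in CVST, 123, 25.1 and 133 CPM in CVST+Ligation and 42.9, 29.7 and 54.8 CPM in 4-PBA. As for Slc17a7, CVST+Ligation replicate 2 was the lowest of the 9 libraries and 4-PBA did not overlap with CVST. The log2 fold changes were -0.92 ± 0.51, -1.14 ± 0.52 and -2.06 ± 0.53 in the same order of comparisons, and the first 2 were -0.47 and -1.57 without CVST+Ligation replicate 2.

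**Figure D1:**
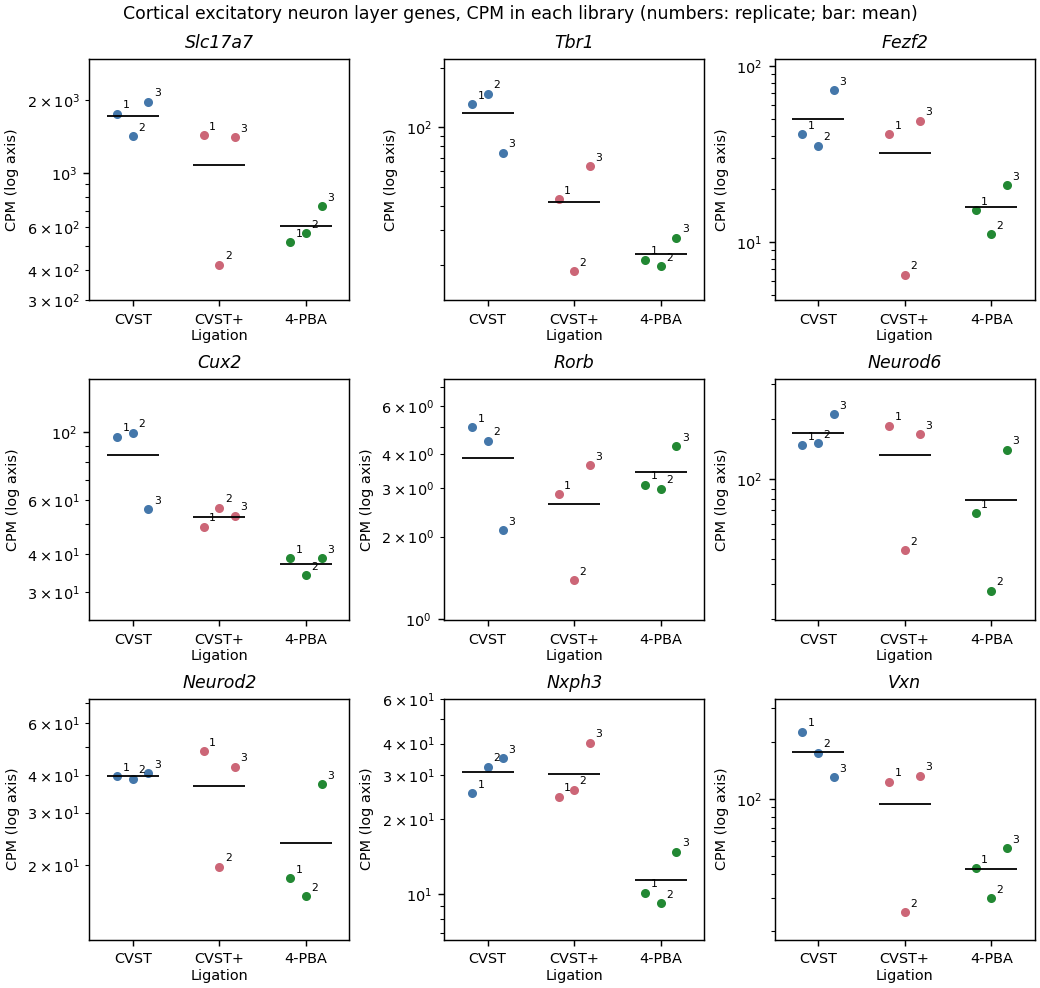
Level of each of the 9 genes in each library, in CPM on log axes, by group, with the replicate number beside each point and a bar at the group mean of 3 mice. The 4-PBA libraries lie below all CVST libraries for 8 genes, as for 11.5% of all genes tested, and overlap with them for Rorb. Nothing is read from that count, since the 9 genes were chosen with these values known. CVST+Ligation replicate 2 is the lowest library for 5 genes.

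Tbr1 had the largest log2 fold change of the members in both comparisons with CVST. This T-box factor specifies the corticothalamic neurons of layer 6 and lies at chr2:61802930-61814114, on the plus strand. Its level was 130, 147 and 74.3 CPM in CVST, 43.1, 18.6 and 63.4 CPM in CVST+Ligation and 21.3, 19.8 and 27.6 CPM in 4-PBA. All its CVST+Ligation libraries lay below all CVST libraries, as they did for 7.21% of all genes tested. The log2 fold change was -1.49 ± 0.40 for CVST+Ligation against CVST, with the mean 2.81-fold lower, and -1.14 without CVST+Ligation replicate 2. It was -0.87 ± 0.40 for 4-PBA against CVST+Ligation, or -1.20 without that replicate, and -2.36 ± 0.42 for 4-PBA against CVST.

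Fezf2, a zinc finger factor that specifies the subcerebral projection neurons of layer 5, lies at chr14:12342094-12348189 on the minus strand. Its level was 40.8, 35.2 and 72.7 CPM in CVST, 41.0, 6.54 and 48.7 CPM in CVST+Ligation and 15.1, 11.1 and 21.1 CPM in 4-PBA. The lowest value, 127 counts in CVST+Ligation replicate 2, was 11.1-fold below the highest, in CVST replicate 3, which was the widest span among the members. The fold change for CVST+Ligation against CVST was -0.63 ± 0.59 on the log2 scale and moved to -0.15 without that replicate. The value for 4-PBA against CVST+Ligation was -1.02 ± 0.60, or -1.49 without it, and that for 4-PBA against CVST was -1.65 ± 0.61.

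Nxph3 encodes neurexophilin 3, a secreted ligand of alpha-neurexins that marks neurons of the deepest cortical layer, and lies at chr11:95509845-95514570 on the minus strand. Its level was 25.3, 32.3 and 34.99 CPM in CVST, 24.5, 26.1 and 40.4 CPM in CVST+Ligation and 10.1, 9.21 and 14.8 CPM in 4-PBA. The first 2 groups covered nearly the same range and 4-PBA lay below both. Unlike Slc17a7, Tbr1, Fezf2 and Vxn, Nxph3 was not low in CVST+Ligation replicate 2. The log2 fold change was -0.02 ± 0.25 for CVST+Ligation against CVST, and its sign turned to 0.01 when libraries were scaled by total counts and to 0.05 when they were scaled by pan-neuronal counts. It also turned when 1 library was left out, to 0.01 without CVST replicate 2, 0.05 without CVST replicate 3, 0.10 without CVST+Ligation replicate 1 and 0.07 without CVST+Ligation replicate 2. It was -1.41 ± 0.26 for 4-PBA against CVST+Ligation, or -1.49 without that replicate, and -1.44 ± 0.26 for 4-PBA against CVST.

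Cux2 values lay close together within CVST+Ligation and within 4-PBA. This homeobox factor of layers 2 to 4 lies at chr5:121856366-122050102 on the minus strand, and the antisense genes Gm3970 and Gm15637 are annotated within it. Its level was 96.6, 99.7 and 55.9 CPM in CVST, 49.0, 56.5 and 53.3 CPM in CVST+Ligation and 38.7, 34.0 and 38.6 CPM in 4-PBA. CVST replicate 3 overlapped with CVST+Ligation, and 4-PBA lay below every library of both other groups. Cux2 was not low in CVST+Ligation replicate 2, where it had its highest value within that group. The log2 fold changes were -0.67 ± 0.21, -0.51 ± 0.21 and -1.18 ± 0.21 for CVST+Ligation against CVST, 4-PBA against CVST+Ligation and 4-PBA against CVST. Without CVST+Ligation replicate 2 the first 2 were -0.72 and -0.45.

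Rorb, a nuclear receptor that marks layer 4 neurons and is also made in the thalamus, lies at chr19:18930605-19111196 on the minus strand. It was the least abundant member, with 27 to 118 counts per library. Its level was 5.01, 4.48 and 2.12 CPM in CVST, 2.85, 1.39 and 3.65 CPM in CVST+Ligation and 3.09, 2.99 and 4.27 CPM in 4-PBA. The 3 groups overlapped, and the log2 fold changes were -0.56 ± 0.43, 0.39 ± 0.43 and -0.17 ± 0.43. The first 2 were -0.26 and 0.10 without CVST+Ligation replicate 2. Rorb was the single member with a value above 0 for 4-PBA against CVST+Ligation. Its sign turned, in the comparison of 4-PBA with CVST, to 0.05 under scaling by pan-neuronal counts and to 0.07 without CVST replicate 1.

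Neurod6 and Neurod2 encode basic helix-loop-helix factors of maturing and adult excitatory neurons in cortex and hippocampus, and Neurod2 is also made by cerebellar granule cells. Neurod6 lies at chr6:55677822-55681263 and Neurod2 at chr11:98325415-98329648, both on the minus strand. The level of Neurod6 was 148, 152 and 213 CPM in CVST, 186, 44.1 and 168 CPM in CVST+Ligation and 67.6, 27.6 and 141 CPM in 4-PBA. For Neurod2 it was 39.8, 39.0 and 40.7 CPM in CVST, 48.3, 19.7 and 42.7 CPM in CVST+Ligation and 18.04, 15.7 and 37.4 CPM in 4-PBA. Within CVST+Ligation and within 4-PBA, the second replicate was the lowest for both genes, and 4-PBA replicate 3 came close to the CVST range for both. The summed level of 8 hippocampal markers was 29.7, 36.0 and 102 CPM in CVST. It was 195, 48.1 and 137 CPM in CVST+Ligation and 83.3, 66.6 and 138 CPM in 4-PBA. The part of hippocampal tissue in the levels of both genes was not tested. The log2 fold changes of Neurod6 were -0.36 ± 0.59, -0.76 ± 0.60 and -1.12 ± 0.60. Those of Neurod2 were -0.11 ± 0.37, -0.64 ± 0.38 and -0.75 ± 0.38. Without CVST+Ligation replicate 2, the first of these turned to 0.05 for Neurod6 and to 0.19 for Neurod2, and the second was -1.15 and -0.92.

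**Figure D2:**
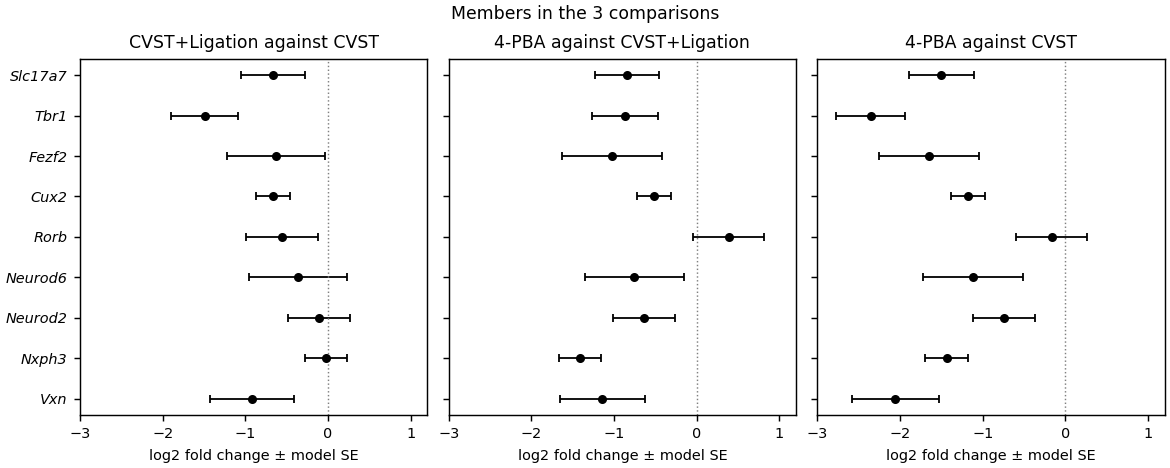
Log2 fold change of each of the 9 genes in the 3 comparisons, with bars of 1 model SE on each side and a dotted line at 0. In the comparison of 4-PBA with CVST the values run from -2.36 for Tbr1 to -0.17 for Rorb, whereas for CVST+Ligation against CVST Nxph3 (-0.02) and Neurod2 (-0.11) sit next to 0.

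For CVST+Ligation against CVST, groups that by design differ in ligation, all 9 log2 fold changes were below 0, with a median of -0.63. The sums of midbrain and hindbrain markers also differed, 121 to 417 CPM against 13.6 to 16.6 CPM, so ligation is not the only difference between them. The median over all 14746 genes tested was 0.00. The groups did not overlap, on the low side, for 7.21% of all genes and for 1 member, Tbr1. Nothing is read from this count or from those of the next 2 comparisons, since the members were chosen with these values known. Without CVST+Ligation replicate 2 the median was -0.26, and 6 of the 9 values stayed below 0.

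For 4-PBA against CVST+Ligation, groups that by design differ in 4-PBA, 8 of the 9 values were below 0. The median was -0.84, against -0.02 over all genes. The sums of hypothalamic markers also differed, 304 to 597 CPM against 16.8 to 58.1 CPM, so 4-PBA is not the only difference between them. The groups did not overlap on the low side for 4.22% of all genes and for 2 members, Cux2 and Nxph3. Without CVST+Ligation replicate 2 the median was -1.20, farther from 0, whereas that of the previous comparison moved towards 0. The median for 4-PBA against CVST+Ligation was nearer to 0 without CVST+Ligation replicate 1 (-0.57) or replicate 3 (-0.55).

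For 4-PBA against CVST, all 9 values were below 0 and the median was -1.44, against -0.01 over all genes. The groups did not overlap on the low side for 11.5% of all genes and for 8 members. The CVST+Ligation libraries are in neither mean of this comparison but share its filter on low counts, scaling and estimate of the spread, and the median without replicate 2 was -1.42. When libraries were scaled by pan-neuronal counts, the median over all genes shifted to 0.18 and that of the members to -1.24.

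The ratio of a pair of members within a library does not depend on how the libraries were scaled. The log2 ratio of Tbr1 to Cux2, a deep-layer against an upper-layer factor, was 0.43, 0.56 and 0.41 in CVST. It was -0.18, -1.60 and 0.25 in CVST+Ligation and -0.86, -0.78 and -0.49 in 4-PBA. Every library of the other groups thus had less Tbr1 per Cux2 than every CVST library, with the lowest ratio in CVST+Ligation replicate 2. The log2 ratio of Fezf2 to Tbr1 was -1.67 and -2.07 in CVST replicates 1 and 2 and -0.03 in replicate 3, so the CVST mice did not share 1 balance of the deep-layer factors. In CVST+Ligation it was -0.07, -1.51 and -0.38, and in 4-PBA it was -0.49, -0.84 and -0.39. The log2 ratio of Neurod6 to Neurod2 was 1.90 to 2.39 in CVST, and it was as low as 1.16 in CVST+Ligation replicate 2 and 0.81 in 4-PBA replicate 2 against 1.91 to 1.98 in the others of those groups.

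The log2 ratio of Slc17a7 to Slc17a6 sets the vesicular glutamate transporter of cortex against VGLUT2, that of thalamus, midbrain and hypothalamus. It was 7.16, 6.34 and 7.23 in CVST, 5.28, 1.64 and 4.71 in CVST+Ligation and 2.55, 2.65 and 2.997 in 4-PBA. No library of the other groups reached the CVST range. Slc17a6 itself was at 12.3 to 17.6 CPM in CVST, 37.0 to 134 CPM in CVST+Ligation and 88.5 to 91.7 CPM in 4-PBA. Between CVST and 4-PBA both sides of the ratio thus differed. In CVST+Ligation replicates 1 and 3 Slc17a7 was within or just below its CVST range, so there mainly Slc17a6 differed.

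**Figure D3:**
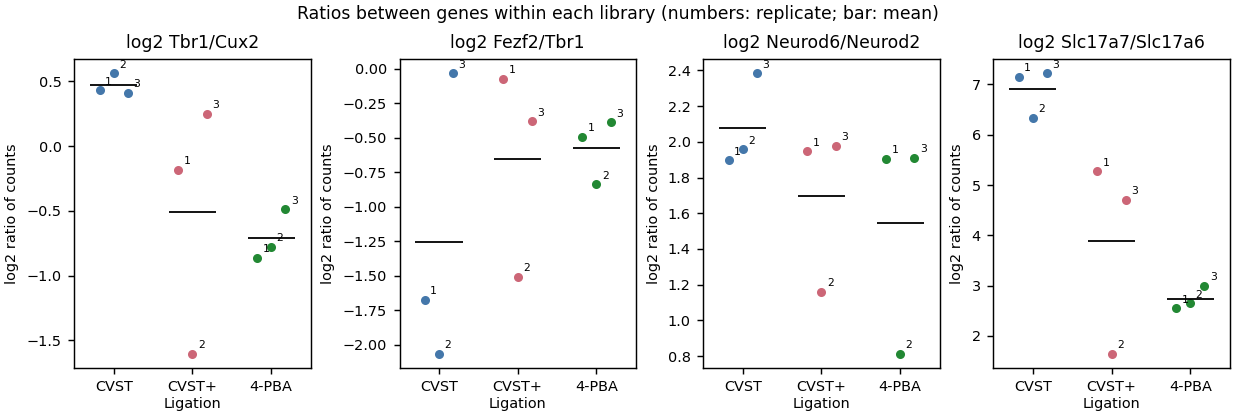
Log2 ratios of counts of Tbr1 to Cux2, Fezf2 to Tbr1, Neurod6 to Neurod2 and Slc17a7 to Slc17a6 in each library, by group, with the replicate number beside each point and a bar at the mean of 3 mice. The Tbr1 to Cux2 ratio lies between 0.41 and 0.56 in CVST and at or below 0.25 elsewhere.

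The members were also set against neurons of all kinds. The summed level of 13 pan-neuronal genes was 6589 to 8504 CPM over the 9 libraries. Per 1000 CPM of these genes, Slc17a7 stood at 209, 167 and 256 in CVST, at 195, 53.9 and 176 in CVST+Ligation and at 76.4, 66.6 and 111 in 4-PBA. Tbr1 stood at 15.5, 17.4 and 9.65 in CVST, 5.88, 2.39 and 7.93 in CVST+Ligation and 3.13, 2.33 and 4.19 in 4-PBA. For both genes 4-PBA lay below all of CVST. On this scale 2 of the other members had a group that did not lie below CVST in the mean. Rorb stood at 0.466 ± 0.169 in CVST and 0.484 ± 0.151 in 4-PBA, and Nxph3 at 3.78 ± 0.772 in CVST and 3.92 ± 0.979 in CVST+Ligation (SD, n = 3).

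Levels of most members went together across the 9 libraries. The 36 pairs had a median Pearson r of 0.71 in log2 CPM, and 35 were above 0. The highest values were 0.96 for Slc17a7 with Fezf2, 0.96 for Neurod6 with Neurod2 and 0.95 for Slc17a7 with Vxn. The lowest was -0.06, for Rorb with Nxph3. Rorb had the lowest median r with the other members, 0.41, followed by Cux2 with 0.55. These values pool the groups, so differences between groups enter them. Over deviations from the group means, the median was 0.61 and 5 of the 36 pairs were below 0, all of which hold Cux2. They were Cux2 with Fezf2 (-0.39), Slc17a7 (-0.32), Neurod6 (-0.15), Nxph3 (-0.14) and Neurod2 (-0.07). All are a description over 9 libraries that share 1 normalization. CVST+Ligation replicate 2, the lowest library for 5 members but not for Cux2, is among them. The correlations were not repeated without it.

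The genes outside the members whose log2 CPM was most like the mean standardized level of the 9 were Dkk3 (r = 0.99), Mical2 (0.98), Vipr1 (0.98), Ptk2 (0.97) and Bcl11a (0.97) over the same 9 libraries. Of 14737 genes, 132 had an r above 0.9 and 161 one below -0.9. Dkk3, a secreted protein of the dickkopf family, was at 197, 153 and 123 CPM in CVST, 120, 49.0 and 143 CPM in CVST+Ligation and 46.1, 41.8 and 83.1 CPM in 4-PBA, which repeats the low value of CVST+Ligation replicate 2. Bcl11a, a zinc finger factor of cortical neurons, was at 107, 127 and 124 CPM, then 112, 49.9 and 103 CPM and then 57.4, 48.5 and 70.5 CPM in the same order. Among the lists of other genes, the median r with the members was 0.81 for 18 pan-excitatory genes, 0.60 for 17 layer 6 genes, 0.45 for 14 layer 5 genes and 0.21 for 16 upper-layer genes. Lists of other cells and regions also had values above 0, with 0.54 for 8 microglial, 0.27 for 14 striatal and 0.14 for 13 pan-neuronal genes. The values of the remaining lists were below 0, from -0.10 for 8 hippocampal to -0.81 for 8 oligodendrocyte genes.

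Another 65 genes of cortical excitatory neurons, from those 4 lists, were tested across all genes with edgeR's quasi-likelihood test. These lists, like the members and the lists of other cells and regions below, were chosen with earlier results of these libraries known, so their counts are a description and no independent evidence of a direction. For CVST+Ligation against CVST, 16 fell and 5 rose at an unadjusted p below 0.05, which is 24.6% and 7.69% of the 65 against 4.18% and 5.47% of all genes, and the median log2 fold change was -0.38. In 4-PBA against CVST+Ligation, 9 fell and 1 rose (13.8% and 1.54%, against 1.42% and 1.81% of all genes), with a median of -0.27. Between CVST and 4-PBA, 23 fell and 3 rose (35.4% and 4.62%, against 7.33% and 8.07%), with a median of -0.59. The first 2 counts change with single libraries. With 1 library left out, the 16 became 8 without CVST replicate 1, 7 without CVST replicate 2, 9 without CVST+Ligation replicate 1 and 8 without CVST+Ligation replicate 2. The 9 became 4 without CVST+Ligation replicate 1 or 3, 27 without its replicate 2, and 5 without 4-PBA replicate 1 or 2. After Benjamini-Hochberg adjustment none of the 65 was below 0.05 in any of the comparisons, the smallest adjusted p of edgeR's quasi-likelihood test being 0.273, 1.0 and 0.0684. DESeq2 had 5, 1 and 19 of the 65 below that threshold. Of all genes, the adjusted p of edgeR was below it for 0.0203%, 0% and 0.122%. Under scaling by pan-neuronal counts the numbers that fell and rose were 12 and 6, 7 and 3, and 18 and 5.

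The median log2 fold change was below 0 for all 4 lists in all 3 comparisons, from -0.07 for layer 5 in CVST+Ligation against CVST to -0.98 for the pan-excitatory genes in 4-PBA against CVST. Differences between the lists were not tested. The layer 5 share that fell in 4-PBA against CVST, 1 of 14 or 7.14%, is near the 7.33% of all genes. Of the pan-excitatory genes, 7, 2 and 12 fell in the 3 comparisons and 1, 0 and 0 rose. Nrgn, a calmodulin-binding postsynaptic protein, was at 1092, 1358 and 1130 CPM in CVST, 636, 197 and 701 CPM in CVST+Ligation and 368, 325 and 367 CPM in 4-PBA. It fell by 1.76 ± 0.38 on the log2 scale from CVST to 4-PBA (adjusted p = 0.0774, edgeR's quasi-likelihood test). Emx1, a homeobox factor of the dorsal forebrain, fell by 1.88 ± 0.50 in that comparison (adjusted p = 0.123, edgeR). The gene that rose, Neurod1, was at 4.04, 8.29 and 10.9 CPM in CVST and 21.2, 88.2 and 14.99 CPM in CVST+Ligation. All 3 libraries of the latter lay above CVST. The highest was replicate 2, the library with 1570 CPM of cerebellar markers. Next came replicate 1, which had the highest sum of hippocampal markers, 195 CPM. The part of these regions in the rise of Neurod1 was not tested.

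Of the layer 6 genes, 4, 4 and 7 fell and 1, 1 and 0 rose. Cplx3, a complexin of the subplate layer, fell by 2.14 ± 0.55 from CVST to 4-PBA (adjusted p = 0.118, edgeR). Ccn2, a matricellular protein of the same cells, fell by 1.89 ± 0.45 (adjusted p = 0.1004, edgeR). Zfpm2, a zinc finger cofactor, went the other way and rose by 0.76 ± 0.17 from CVST to CVST+Ligation (adjusted p = 0.273, edgeR). In that comparison 12 of the 17 layer 6 genes lay below 0, as Tbr1 did, and 5 above. The 1 that rose is 5.88% of them, near the 5.47% of all genes.

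Of the upper-layer genes, 4, 1 and 3 fell and 1, 0 and 2 rose. Lamp5, a membrane protein of upper-layer neurons and some interneurons, fell by 1.81 ± 0.40 from CVST to 4-PBA (adjusted p = 0.0848, edgeR), whereas Otof, which encodes otoferlin, rose by 1.54 ± 0.48 (adjusted p = 0.176, edgeR). Of the layer 5 genes, 1, 2 and 1 fell and 2, 0 and 1 rose. Rbp4, a retinol-binding protein, fell by 1.53 ± 0.32 from CVST to 4-PBA (adjusted p = 0.0684, edgeR) and Tshz2 rose by 1.28 ± 0.40 (adjusted p = 0.175, edgeR).

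**Figure D4:**
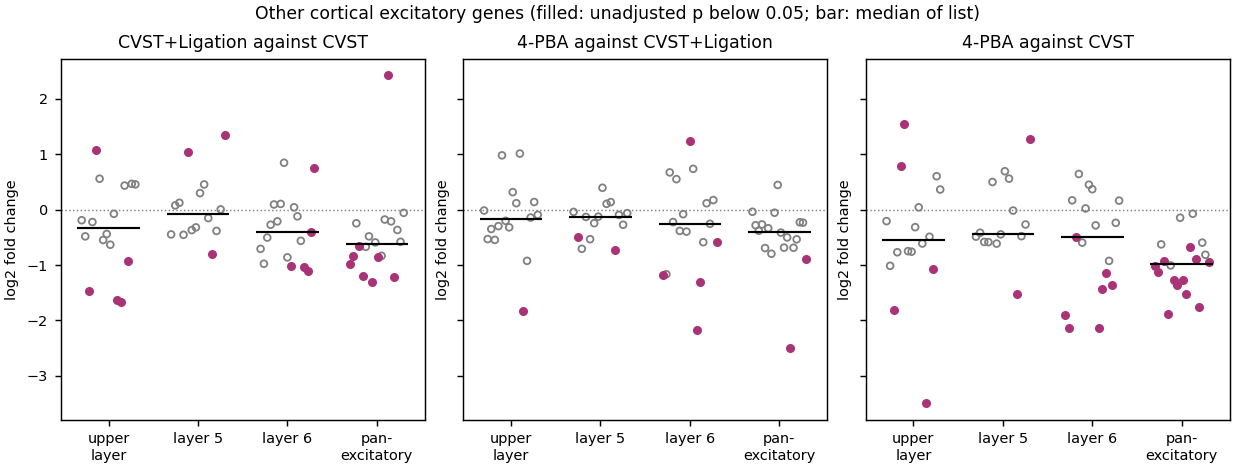
Log2 fold change of the 65 other cortical excitatory genes in the 3 comparisons, by list, with filled points for an unadjusted p below 0.05 in edgeR and a bar at the median of each list. The pan-excitatory list has the lowest median in each comparison, and all 18 of its genes lie below 0 for 4-PBA against CVST.

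Markers of other regions and cell types moved with the same comparisons, and their part in the values of the members was not tested. Genes counted as having risen or fallen had an unadjusted p below 0.05 in edgeR. For CVST+Ligation against CVST, 12 of 13 tested midbrain and hindbrain genes, 8 of 8 cerebellar genes and 8 of 14 thalamic genes rose. In that comparison 13 of 14 striatal genes fell, while 2 of 9 hypothalamic genes rose and 1 fell. Of all genes, 5.47% rose and 4.18% fell. The cerebellar sum was 56.1, 1570 and 99.1 CPM in CVST+Ligation and 38.1 to 53.9 CPM in CVST, so most of the excess lay in replicate 2. The groups did not overlap on the high side for 4 of the 8 cerebellar genes. From CVST to 4-PBA, 9 of the midbrain and hindbrain genes, 11 of the thalamic, 7 of the hypothalamic and 1 of the cerebellar genes rose. Of the striatal genes, 2 fell and 1 rose, and of all genes 8.07% rose and 7.33% fell. For 4-PBA against CVST+Ligation, 7 hypothalamic, 6 thalamic and 4 striatal genes rose and 4 cerebellar and 4 midbrain and hindbrain genes fell. Of all genes, 1.81% rose and 1.42% fell, and 1 of the 8 cerebellar genes did not overlap on the low side. The smallest adjusted p of edgeR's quasi-likelihood test among them was 0.00337 in the first comparison, for Slc18a2, the vesicular monoamine transporter, at 0.310 to 0.51 CPM in CVST and 12.3 to 31.6 CPM in CVST+Ligation. It was the 1 gene of these lists below 0.05 there. The smallest values of that test were 0.283 for striatal, 0.294 for cerebellar, 0.0907 for thalamic and 0.380 for hypothalamic genes. From CVST to 4-PBA, 3 midbrain and hindbrain, 2 hypothalamic and 1 thalamic genes were below 0.05. For 4-PBA against CVST+Ligation no gene of any list was. Of 8 hippocampal genes, 2, 0 and 1 rose and 0, 1 and 0 fell.

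Several defining markers of these regions were at or near 0 in CVST. Gabra6, of cerebellar granule cells, had 0 counts in all libraries of CVST and 4-PBA and 211 CPM in CVST+Ligation replicate 2. Lhx5, Pax7 and Pitx3, of the midbrain and neighbouring regions, had 0 counts in CVST. Pmch, which encodes the hypothalamic melanin-concentrating hormone, was at 0.255 to 0.922 CPM in CVST and at 213, 316 and 378 CPM in the 4-PBA libraries. CVST+Ligation replicate 2 had the highest sums of cerebellar and of midbrain and hindbrain genes and the lowest value of 5 members. CVST+Ligation replicates 1 and 3, with Slc17a7 at 1433 and 1406 CPM, had 151 and 121 CPM of midbrain and hindbrain genes, against 142 to 156 CPM in 4-PBA. They were farther from 4-PBA in thalamic genes, with 420 and 575 against 630 to 1039 CPM, and in hypothalamic genes, with 20.2 and 58.1 against 304 to 597 CPM. For these groups, a difference in the tissue taken and a difference in the cortical neurons cannot be told apart.

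The counts for other neurons and glia are to be read against the same shares of all genes that fell or rose. Of these, 10 cortical interneuron genes had 1 that rose and 1 that fell for CVST+Ligation against CVST, 0 and 1 for 4-PBA against CVST+Ligation, and 1 and 2 for 4-PBA against CVST. Of the 13 pan-neuronal genes, 2, 3 and 3 fell and 0, 0 and 1 rose in the 3 comparisons. Of 8 oligodendrocyte genes, 1, 1 and 6 rose and none fell, and their summed level was 2600 to 3419 CPM in CVST and 4595 to 7453 CPM in 4-PBA. Of 8 astrocyte genes, 3, 0 and 1 rose and none fell. Of 8 microglial genes, 4, 0 and 2 fell and none rose.

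**Figure D5:**
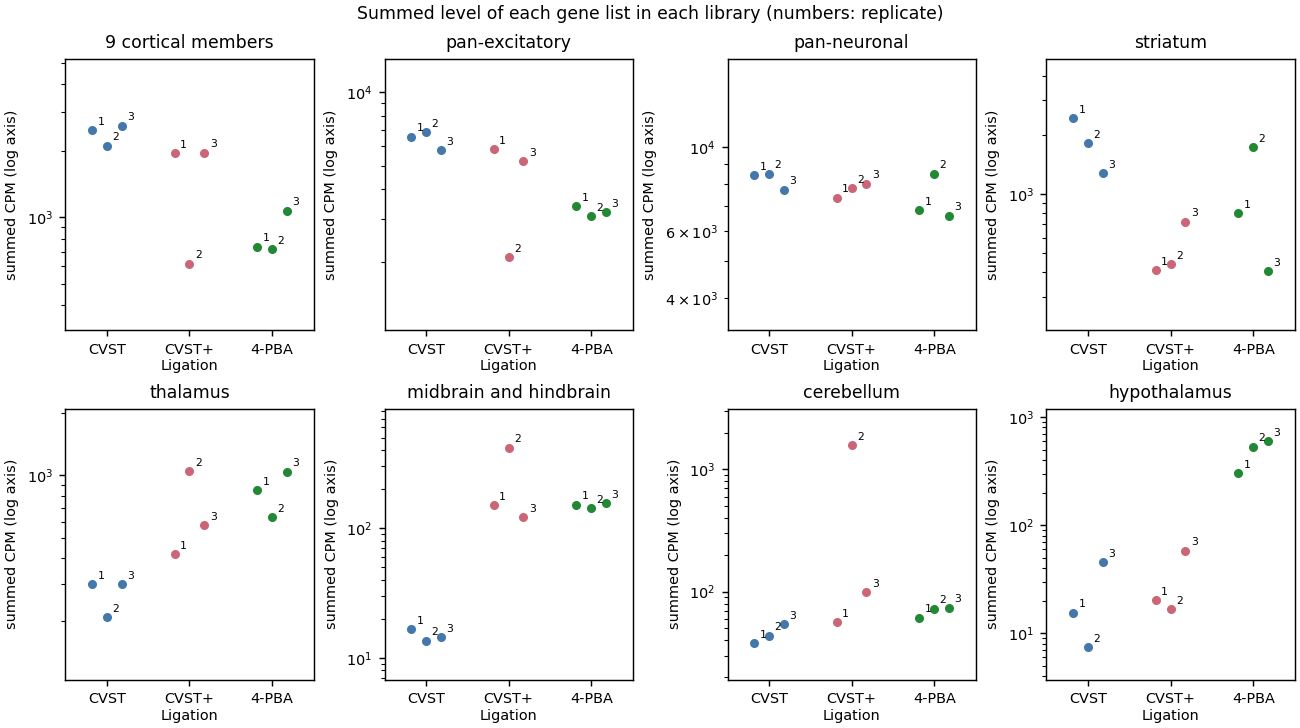
Summed CPM of the 9 members and of 7 other lists in each library, on log axes, by group, with the replicate number beside each point. The members sum to 2105 to 2597 CPM in CVST, 617 to 1959 CPM in CVST+Ligation and 717 to 1071 CPM in 4-PBA. Cerebellar genes reach 1570 CPM in CVST+Ligation replicate 2 and hypothalamic genes 304 to 597 CPM in 4-PBA. Single genes make up most of some sums. Slc17a7 alone holds 1420 to 1974 CPM in CVST, 419 to 1433 CPM in CVST+Ligation and 520 to 732 CPM in 4-PBA. Pmch holds 213 to 378 CPM in 4-PBA.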

How the data were processed

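Brain RNA of 9 mice, 3 in each group, was sequenced, and groups were taken from the sample titles. According to the methods and the submitters' processing notes, the authors used fastp to clean the reads, HISAT2 (orientation mode) to align them to mm10 (GRCm38), StringTie for assembly and RSEM for quantification. Program versions, the counting program and its handling of shared or overlapping reads are not given in the sources used here. The authors deposited counts per gene symbol, not normalized, and FPKM values. The methods name TPM, but the deposited columns sum to 780195 to 879696 and are FPKM.

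Counts went into edgeR 4.0.16 under R 4.3.3, with TMM scaling, filterByExpr, and a quasi-likelihood fit of the 3 groups to all 9 libraries, with Benjamini-Hochberg adjustment over 14746 genes. The paper names no tool for its own comparison. Fold changes are given with the standard error of the model, and the scripts were tested on simulated data. Floors of 3 counts cover counting error only. Within groups, log2 CPM correlated across genes with r of 0.946 to 0.982, and the chi-square of the counts per degree of freedom was 24.2 or more, so all 9 were counted as separate samples. The p-values measure the spread between 3 mice per group.

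The members and all gene lists were chosen with earlier results of these data known. Genes named beside the members are, of each list of cortical genes, those with the 3 smallest p in a comparison, of each other list the most abundant and the one with the smallest p, and the 5 most similar to the members. Some of these are counted only or not reported here, and Slc17a6 and the markers at 0 were named after their values were seen. Alternatives were other scalings (DESeq2 size factors, total counts, pan-neuronal counts), DESeq2 1.42.0, limma 3.58.1 on log2(FPKM + 1) and log2(FPKM + 0.1), other count filters, only the 2 groups compared, the replicate number as a block, and each library left out. The limma step had been planned for TPM. Positions are from GENCODE M21, and promoters from RefSeq were read for 7 members. Plots were drawn with matplotlib 3.10.9.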

Additional observations from a re-analysis of the deposited data

How the results depend on the processing

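The median log2 fold change of the 9 members was below 0 in every comparison under every alternative run. Leaving out 1 library at a time, it ranged from -0.86 to -0.26 for CVST+Ligation against CVST, from -1.20 to -0.55 for 4-PBA against CVST+Ligation and from -1.67 to -1.31 for 4-PBA against CVST. CVST+Ligation replicate 2 gave the value nearest to 0 in the first comparison and the one farthest from 0 in the second.

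The count of other cortical excitatory genes that fell, 16 of 65 for CVST+Ligation against CVST, ranged from 7 to 17 without 1 library. It was 8 without CVST replicate 1, 7 without CVST replicate 2, 9 without CVST+Ligation replicate 1 and 8 without CVST+Ligation replicate 2. For 4-PBA against CVST+Ligation the count of 9 ranged from 4 to 27. It was 4 without CVST+Ligation replicate 1 or 3, 27 without CVST+Ligation replicate 2 and 5 without 4-PBA replicate 1 or 2. In 4-PBA against CVST it stayed between 17 and 27. The cause of these moves was not tested.

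With the replicate number as a block, the counts were 13, 9 and 24 and the medians of the members -0.64, -0.78 and -1.46. Of 9 pairs of libraries with the same number, 4 had deviations correlated above 0.1, and a library correlated best with its own number in 12 of 18 cases. Since the labels name no shared batch or day and not every pair passed 0.1, the numbers were not taken to pair the samples.

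Of all genes with an unadjusted p below 0.05, 56.7%, 56.1% and 52.4% were higher in the 3 comparisons. Under total counts these shares were 65.4%, 66.1% and 65.1%, under pan-neuronal counts 77.1%, 82.5% and 82.5%, and with limma on log2(FPKM + 1) 59.9%, 72.4% and 65.0%. After adjustment, edgeR called 3, 0 and 18 genes and DESeq2 260, 22 and 837. Depth limits Rorb, with 27 to 118 counts, more than the other members.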
